A study of Mus musculus with 10 samples.

Results

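The BCL2 family decides whether mitochondria release the proteins that start cell death, and 10 of its genes were followed here in the failing heart: the survival genes Bcl2, Bcl2l1 and Mcl1, the pore-forming genes Bax and Bak1, the BH3-only genes Bid, Bbc3 and Bcl2l11, and the mitophagy receptor genes Bnip3 and Bnip3l. They were chosen by symbol, and all 10 were among the 60676 genes of the count table and the 13453 genes that were tested. RNA of apical ventricle was sequenced from 5 MLPKO and 5 cRADΔ/Δ-MLPKO male mice, with one library per mouse. All mice lacked muscle LIM protein (MLP, encoded by Csrp3), a loss that leads to dilated cardiomyopathy, and carried floxed Rrad alleles. In cRADΔ/Δ-MLPKO (labelled MLPKO-cRADKO), a tamoxifen-inducible Cre driven by the cardiomyocyte promoter of Myh6 (MYH6-MerCreMer) removed RAD, a protein that restrains the L-type calcium channel, whereas MLPKO mice carried no Cre. Both groups received 1 dose of tamoxifen, 100 mg per kg, at 10 weeks of age and were studied 1 month later, at 16 weeks by the labels. These times do not match each other exactly, and the sources used here do not resolve this. Deletion of RAD and presence of the Cre transgene went together and cannot be told apart.

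In healthy heart muscle, BAX and BAK are held in check by the survival proteins BCL2, BCL-XL (from Bcl2l1) and MCL1, which bind them through a groove on their surface. BH3-only proteins such as BID, PUMA (from Bbc3) and BIM (from Bcl2l11) insert a short helix, the BH3 segment, into that groove, and some of them also activate BAX and BAK directly. BNIP3 and NIX (from Bnip3l) sit on the outer mitochondrial membrane, where they tether the organelle to the autophagosome, and both are known targets of hypoxia. The heart depends on long-lived, densely packed mitochondria and replaces few cardiomyocytes, so this balance has been studied closely in cardiomyopathy.

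The BH3 core is the feature that ties the members together, and it is shown for all 10. The pattern used was a leucine, 3 residues of any kind, then glycine, alanine or serine, then aspartate. Exactly 1 match in each protein was required of this pattern, and how often other proteins match it was not measured. The matches therefore only place the segment. The lines give the 27 coding bases from that leucine on, 5′ to 3′ in the sense of the gene, from the GENCODE M39 annotation of GRCm39, and the capitals mark the codons of the leucine and of the small residue with its aspartate.
Bcl2: CTCcgccgggctGGGGATgacttctct
Bcl2l1: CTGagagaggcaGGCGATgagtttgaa
Mcl1: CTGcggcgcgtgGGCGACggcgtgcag
Bax: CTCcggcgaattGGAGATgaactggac
Bak1: CTTgctctcatcGGAGATgatattaac
Bid: CTCgcccaaataGGCGATgagatggac
Bbc3: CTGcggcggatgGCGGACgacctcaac
Bcl2l11: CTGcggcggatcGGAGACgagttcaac
Bnip3: CTGaagaaaaacTCAGATtggatatgg
Bnip3l: TTGaagaaaagtGCAGACtgggtatca

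The residue before the aspartate was glycine in 7 members, alanine in Bbc3 and Bnip3l, and serine in Bnip3. For Bcl2 the segment lay in exon 1 of 2 (chr1:106640305-106640331, minus strand) and for Bcl2l11 in exon 3 of 4 (chr2:127989070-127989096, plus strand). In Mcl1 it lay in exon 1 of 3 (chr3:95566747-95566773, plus strand), in Bax in exon 3 of 6 (chr7:45115421-45115447, minus strand) and in Bbc3 in exon 3 of 4 (chr7:16047698-16047724, plus strand). The counts cover whole genes, so they do not separate transcripts that include these exons from those that skip them, of which some forms of BIM are a well-known case.

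The libraries held 33457406 to 49965101 counts (median 43738141). Rrad had a normalised count (the count scaled to a common library size) of 5774 to 11644 in MLPKO and 5562 to 8361 in cRADΔ/Δ-MLPKO, and Csrp3 had 41726 to 134796 against 28553 to 48663. Both genes overlapped between the groups. The log2 fold change was −0.38 for Rrad (edgeR adjusted p = 0.290) and −1.08 for Csrp3 (edgeR adjusted p = 0.0667, DESeq2 adjusted p = 0.0362). These counts cover the whole gene, and for Rrad also the cells without Cre, so they do not check the labels. The library of MLPKO mouse 2 stood apart from the others, with a highest correlation to any other library of 0.980 against 0.987 to 0.990 elsewhere. Cell type markers and mitochondrial transcripts also moved with genotype. The summed level of 8 cardiomyocyte markers was 63825 to 72234 CPM (counts scaled to a common library total) in MLPKO and 45741 to 59952 in cRADΔ/Δ-MLPKO, and 7 of the 8 had a log2 fold change below 0, of which Tnnt2 passed the test. Markers of endothelial cells (945 to 1071 against 1136 to 1294 CPM, 7 of 7 above 0) and macrophages (115 to 162 against 142 to 246, 8 of 8 above 0) went the other way, with none past the test, as did those of mural cells (794 to 1006 against 1022 to 1187), of which Rgs5 and Acta2 passed. An unadjusted edgeR p under 0.05 was found for 5 of 8 cardiomyocyte, 6 of 7 endothelial, 8 of 8 macrophage and 3 of 6 tested mural markers, against 21.56% of all genes. DESeq2 called 3, 3, 3 and 2 of them, against 9.65% of all genes. Fibroblast markers summed to 1979 to 2591 against 2079 to 2976, with Dpt past the test, and lymphocyte markers to 6.40 to 10.1 against 7.93 to 14.8. The 7 skeletal muscle markers, of which the heart also expresses Ckm, summed to 395 to 582.5 against 577.2 to 675.8 CPM. Neither of the 2 that were tested passed, Ckm had a log2 fold change of 0.27 (edgeR adjusted p = 0.158), and the skeletal myosins Myh1 and Myh4 had at most 2 counts in any library. Mitochondrially encoded genes took 15.8% to 21.2% of counts in MLPKO and 21.4% to 22.6% in cRADΔ/Δ-MLPKO.

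Of the 10 members, Bcl2 alone passed the test between the genotypes. It was lower in cRADΔ/Δ-MLPKO, at 57.8% of its MLPKO mean, and no member passed in the other direction. The 2 BH3-only genes Bcl2l11 and Bbc3 had the highest positive fold changes of the members, 0.53 and 0.50 on the log2 scale, without reaching the threshold. The test was the quasi-likelihood F-test in edgeR, and a gene was called at a Benjamini-Hochberg adjusted p under 0.05 over all 13453 genes. Against the 1 of 10 members called, 2.74% of all genes were called, 1.8% as lower and 0.944% as higher in cRADΔ/Δ-MLPKO. Of the members, 6 had a log2 fold change below 0 and 4 above, with a median of −0.06 against 0.01 over all genes. At an unadjusted p under 0.05 there were 5 members, against 21.56% of all genes. DESeq2 called 3 members, Bcl2, Mcl1 and Bcl2l11, and 9.65% of all genes by that tool. In simulated counts, 16.85% of the DESeq2 calls and 4.76% of the edgeR calls were false. There edgeR found 36.3% of the genes changed by 0.5 on the log2 scale, so a gene not called may still differ.

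**Figure D1:**
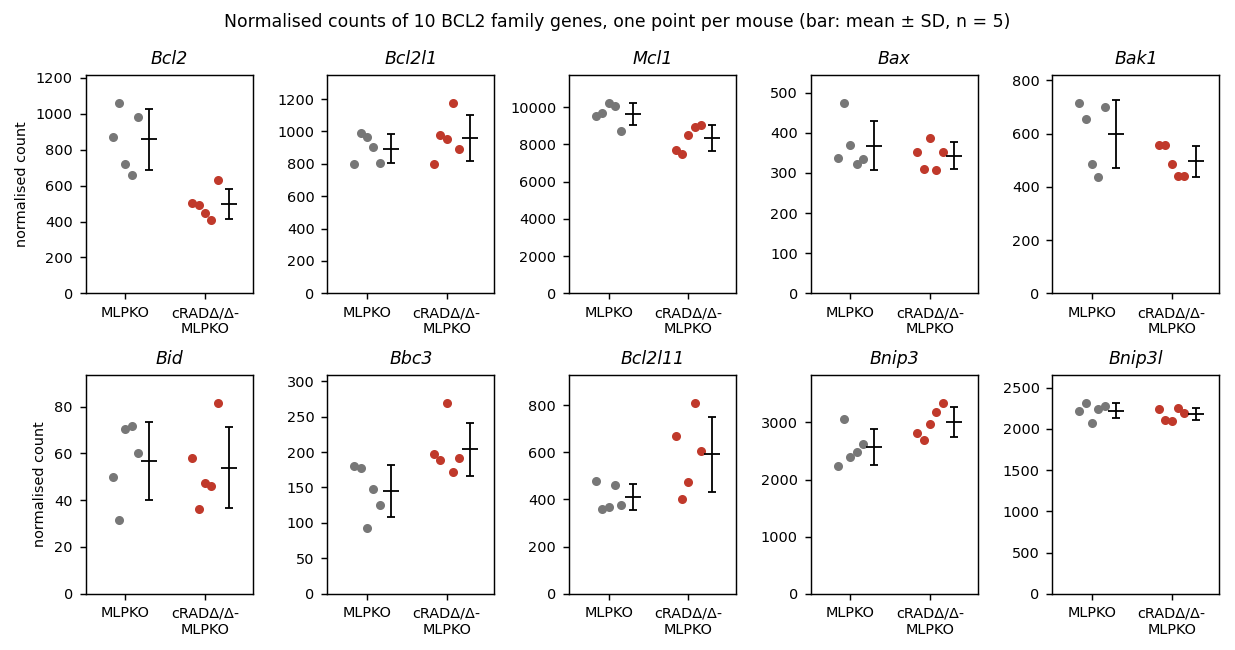
Normalised counts (vertical axes, starting at 0) of the 10 members, with one point per mouse in MLPKO (grey) and cRADΔ/Δ-MLPKO (red) and the mean ± SD (n = 5) beside the points. Bcl2 is the member whose groups do not overlap, from 660.4 up in MLPKO and up to 630.1 in cRADΔ/Δ-MLPKO.

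Bcl2 encodes the founding survival protein of the family, which sits on mitochondria and the endoplasmic reticulum. Its normalised counts were 868.6, 1060, 720.5, 660.4 and 984 in the 5 MLPKO mice and 501, 493.3, 447.1, 411.5 and 630.1 in the 5 cRADΔ/Δ-MLPKO mice. Every cRADΔ/Δ-MLPKO mouse lay below every MLPKO mouse, with the narrowest gap between MLPKO mouse 4 and cRADΔ/Δ-MLPKO mouse 5. The means were 859 ± 169 and 497 ± 83.0 (SD, n = 5), a log2 fold change of −0.79 (standard error 0.147, 95% interval −1.11 to −0.47, edgeR adjusted p = 0.0234). Such a lack of overlap was seen for this 1 of the 10 members and for 6.62% of all genes tested. DESeq2 gave an adjusted p of 4.93e-05 and limma-voom 0.0278. When any single mouse was left out, the fold change stayed between −0.88 and −0.70, while the edgeR adjusted p ran from 0.0118 to 0.0670 and was under the threshold in 5 of 10 fits. Without the divergent MLPKO mouse 2 the fold change was −0.70 (edgeR adjusted p = 0.0297). In bulk tissue, fewer cells of a type and less RNA per cell cannot be told apart, and the lower cardiomyocyte marker sum and the higher mitochondrial share moved with this result, as did the endothelial, mural and macrophage markers, whose part in it was not tested.

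Mcl1 encodes a short-lived survival protein that cardiomyocytes need. The 5 MLPKO mice had 9525, 9711, 10220, 10058 and 8703 normalised counts and the 5 cRADΔ/Δ-MLPKO mice 7695, 7508, 8499, 8924 and 9024. The groups overlapped through MLPKO mouse 5, which lay below 2 of the cRADΔ/Δ-MLPKO mice. The difference was small, at 86.4% of the MLPKO mean (log2 fold change −0.21, 95% interval −0.36 to −0.06), and fell on either side of the threshold by tool (edgeR adjusted p = 0.110, DESeq2 adjusted p = 0.0449).

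Bcl2l1, the gene for BCL-XL, had 894 ± 89.3 normalised counts in MLPKO and 959.5 ± 139.6 in cRADΔ/Δ-MLPKO (SD, n = 5), with ranges of 799.8 to 993 and 796.6 to 1175. The groups lay over each other, and the log2 fold change of 0.10 had a 95% interval of −0.12 to 0.33 (edgeR adjusted p = 0.611). A fall of the size seen for Bcl2 was outside that interval. The 3 survival genes thus had the values −0.79, −0.21 and 0.10 on the log2 fold change scale.

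Bax and Bak1 encode the proteins that open the outer mitochondrial membrane. Bax had 323 to 474.2 normalised counts in MLPKO and 308.4 to 388.4 in cRADΔ/Δ-MLPKO, with the highest value in MLPKO mouse 2. Its log2 fold change was −0.10 (95% interval −0.36 to 0.16, edgeR adjusted p = 0.667), and without MLPKO mouse 2 it was 0.0025. Bak1 counts were 714.7, 653.7, 486.3, 438.8 and 699.4 in MLPKO and 556.6, 555.4, 486.7, 441.9 and 439.4 in cRADΔ/Δ-MLPKO. In MLPKO, 3 of 5 mice lay above all cRADΔ/Δ-MLPKO mice and the other two lay among or just below them, and the log2 fold change of −0.27 did not pass (95% interval −0.58 to 0.04, edgeR adjusted p = 0.30). Bak1 shares 437 exon bases with Ggnbp1 on the opposite strand, which had 142 to 256 counts, and the strand setting of the counting is not given in the sources used here.

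Among the BH3-only genes, Bcl2l11 had the highest fold change. BIM, its product, binds all survival proteins and can activate BAX. Its normalised counts were 477.8, 360.3, 369.6, 460.8 and 377.5 in MLPKO and 670.4, 401.5, 473.1, 808.2 and 604.9 in cRADΔ/Δ-MLPKO. In cRADΔ/Δ-MLPKO, 3 of 5 mice lay above all MLPKO mice, mice 2 and 3 lay within the MLPKO range, and the spread was wider in cRADΔ/Δ-MLPKO (SD 160.9) than in MLPKO (SD 55.5). The log2 fold change of 0.53 (standard error 0.174, 95% interval 0.15 to 0.91) had an unadjusted p of 0.0100 and an edgeR adjusted p of 0.108, and a DESeq2 adjusted p of 0.0406.

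Bbc3 encodes PUMA, a BH3-only protein induced by p53. Its normalised counts were 180.6, 176.9, 93.0, 147.7 and 125.8 in MLPKO and 197.9, 189, 268.7, 171.2 and 191.7 in cRADΔ/Δ-MLPKO. Mouse 4 of cRADΔ/Δ-MLPKO fell inside the MLPKO range and mouse 3 stood well above the others. The log2 fold change was 0.50 (95% interval 0.08 to 0.91, unadjusted p = 0.0245, edgeR adjusted p = 0.16), and DESeq2 gave an adjusted p of 0.0973. That mouse 3 was also the sole library with adipocyte transcripts in number, at 216 counts of Adipoq, 330 of Plin1 and 396 of Cidec, against at most 10 for any of these genes elsewhere. Without it the Bbc3 log2 fold change was 0.38 (edgeR adjusted p = 0.309).

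Bid, whose protein links death receptors to mitochondria, was the lowest member at 31.4 to 71.7 normalised counts in MLPKO and 36.0 to 81.3 in cRADΔ/Δ-MLPKO. The groups overlapped throughout, and the log2 fold change of −0.08 had the widest interval of the members, −0.68 to 0.52 (edgeR adjusted p = 0.90). Bid shares 3059 exon bases with Bcl2l13 on the opposite strand, a gene with 2776 to 5383 counts per library, so without strand its reads cannot be told from those of its neighbour.

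Neither mitophagy receptor passed the test, and the difference between their changes was not tested. Bnip3 had 2246, 3067, 2393, 2487 and 2626 normalised counts in MLPKO and 2818, 2700, 2980, 3184 and 3335 in cRADΔ/Δ-MLPKO. All cRADΔ/Δ-MLPKO mice lay above 4 of the MLPKO mice, and the overlap came from MLPKO mouse 2, the divergent library. The log2 fold change was 0.23 (95% interval 0.04 to 0.42, unadjusted p = 0.0239, edgeR adjusted p = 0.158). For Bnip3l the values were 2069 to 2311 and 2098 to 2253, the smallest spread of the members relative to their level, with a log2 fold change of −0.03 and a 95% interval of −0.14 to 0.08 (edgeR adjusted p = 0.792).

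**Figure D2:**
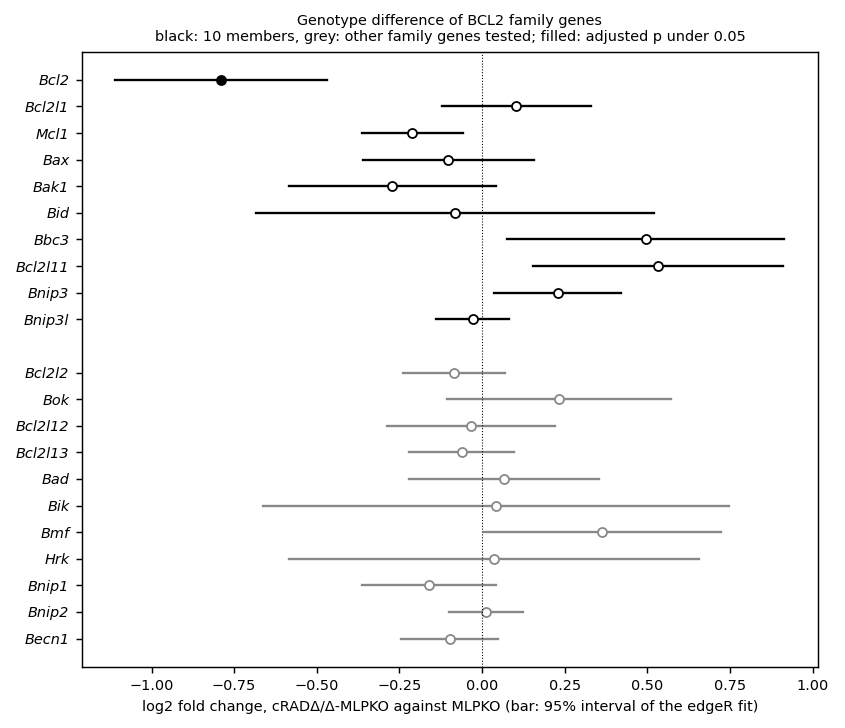
Log2 fold change of cRADΔ/Δ-MLPKO against MLPKO (horizontal axis) with the 95% interval of the edgeR fit, for the 10 members (black) and the 11 other family genes that were tested (grey). The filled point is Bcl2 at −0.79, and among the members the intervals of Mcl1, Bbc3, Bcl2l11 and Bnip3 lie to one side of 0 without an adjusted p under 0.05.

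Levels were compared between genes as TPM, which divides the count by the exon length of the gene and scales every library to the same total. The length joins the exons of all annotated transcripts, from 1856 bases for Bax to 10112 for Bcl2l11. Exons that the heart does not use thus lower the TPM of a gene, and the order between genes depends on this length. In MLPKO the order was Mcl1 at 211 ± 17.0, Bnip3 at 45.3 ± 5.52, Bnip3l at 30.8 ± 0.983, Bak1 at 19.0 ± 4.02, Bax at 15.1 ± 2.74, Bcl2l1 at 13.3 ± 1.56, Bcl2 at 7.11 ± 1.40, Bcl2l11 at 3.08 ± 0.404, Bbc3 at 2.30 ± 0.585 and Bid at 0.440 ± 0.129 TPM (SD, n = 5). Mcl1 stood above 97.6% of the tested genes, Bcl2 above 49.1% and Bid above 6.61%. The neighbours Bak1, Bax and Bcl2l1 overlapped in their ranges over mice, as did Bcl2l11 and Bbc3, and the other neighbours did not. In cRADΔ/Δ-MLPKO the mean of Bcl2l11, 4.31 ± 1.14 TPM, lay above that of Bcl2, 3.97 ± 0.660 TPM, with overlapping ranges of 2.85 to 5.88 and 3.28 to 5.07. The other members kept their MLPKO order by mean except that Bcl2l1, at 13.8 ± 2.13 TPM, came above Bax, at 13.6 ± 1.73 TPM.

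**Figure D3:**
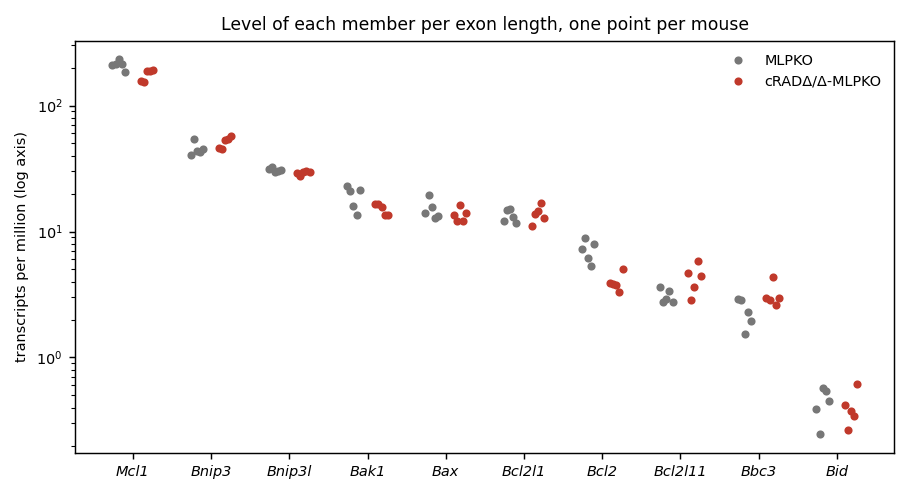
TPM (log axis) of each member, one point per mouse, in MLPKO (grey) and cRADΔ/Δ-MLPKO (red), ordered by the MLPKO mean. The members run from Mcl1 at 154.5 to 232.2 down to Bid at 0.247 to 0.615, and the points of Bcl2 and Bcl2l11 are separate in MLPKO and overlap in cRADΔ/Δ-MLPKO.

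Ratios within a mouse set the members against each other without the library size, and they are given as a description without a test. The log2 ratio of Bcl2 to Bax was −0.95, −1.15, −1.35, −1.28 and −0.76 in MLPKO and −1.81, −1.64, −2.11, −1.90 and −1.47 in cRADΔ/Δ-MLPKO. The groups did not overlap, and the means were −1.10 ± 0.24 and −1.79 ± 0.24 (SD, n = 5), or 0.467 and 0.290 as linear TPM ratios. Bcl2 itself did not overlap between the groups, so this separation is not independent of it. For Bcl2l1 to Bax the means were −0.18 ± 0.16 and 0.01 ± 0.31, and for Mcl1 to Bax 3.81 ± 0.23 and 3.69 ± 0.17, with overlap in both. Bnip3 to Bnip3l went from 0.55 ± 0.14 to 0.81 ± 0.12 with overlap, again through MLPKO mouse 2 at 0.76. A further ratio, Bcl2 to Bcl2l11, was chosen after the values of both genes were seen. It was 1.19 ± 0.42 in MLPKO and −0.09 ± 0.49 in cRADΔ/Δ-MLPKO, with 0.65 to 1.69 against −0.84 to 0.43 and no overlap. This pair joins the members with the lowest and highest log2 fold changes, −0.79 and 0.53, so its separation adds nothing to theirs.

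**Figure D4:**
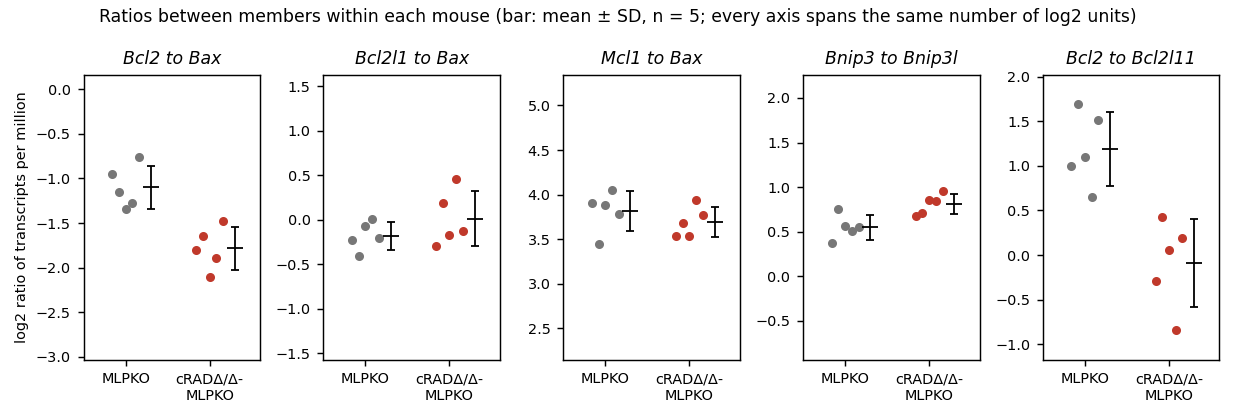
Log2 ratio of TPM between pairs of members (vertical axes, all of the same span) in each mouse, with the mean ± SD (n = 5), for MLPKO (grey) and cRADΔ/Δ-MLPKO (red). The groups are separate for Bcl2 to Bax (−1.35 to −0.76 against −2.11 to −1.47) and for Bcl2 to Bcl2l11, and overlap in the other ratios. The pair Bcl2 to Bcl2l11 was chosen after the values were seen.

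The promoters of the called gene and of the BH3-only genes with positive fold changes are shown. The core marked in each was set by hand, and the window printed for each gene is one that holds it. Windows of 250 bases before to 50 after a start came from RefSeq on GRCm38.p6, a different build from the exons above. Of the 10 members 9 matched, with 14 windows, and Bnip3l had no window and was not searched. On both strands, 4 cores were searched: TGTTTAC of forkhead factors, ACGTG of hypoxia-inducible factors, TGACG of the cAMP response element and GATAA of GATA factors. CACGTG counts on each strand, and TGACGTG would hold both of its cores. They occurred in 3.6%, 19.6%, 20.8% and 25.4% of 32851 windows. The windows below are Bcl2 (chr1:106714241-106714540, minus strand), Bcl2l11 (chr2:128125788-128126087, plus strand) and Bbc3 (chr7:16310011-16310310, plus strand), written 5′ to 3′ in the sense of the gene, with the core in capitals.
Bcl2: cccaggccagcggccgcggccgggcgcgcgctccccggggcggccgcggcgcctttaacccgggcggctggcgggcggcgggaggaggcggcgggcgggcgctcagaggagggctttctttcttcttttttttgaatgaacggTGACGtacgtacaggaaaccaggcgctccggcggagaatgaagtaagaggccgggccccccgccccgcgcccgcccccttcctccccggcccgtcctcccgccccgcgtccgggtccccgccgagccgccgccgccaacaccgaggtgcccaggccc
Bcl2l11: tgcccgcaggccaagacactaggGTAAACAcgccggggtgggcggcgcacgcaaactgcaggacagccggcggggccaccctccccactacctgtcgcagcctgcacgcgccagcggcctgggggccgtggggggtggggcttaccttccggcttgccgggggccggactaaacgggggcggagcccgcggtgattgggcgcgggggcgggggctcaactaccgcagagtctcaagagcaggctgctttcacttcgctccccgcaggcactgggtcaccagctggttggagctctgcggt
Bbc3: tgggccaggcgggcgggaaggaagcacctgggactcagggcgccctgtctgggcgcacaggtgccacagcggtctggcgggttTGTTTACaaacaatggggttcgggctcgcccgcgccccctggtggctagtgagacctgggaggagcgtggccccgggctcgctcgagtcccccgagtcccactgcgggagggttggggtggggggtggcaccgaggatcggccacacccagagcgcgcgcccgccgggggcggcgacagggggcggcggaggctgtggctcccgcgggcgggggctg

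The TGACG of the Bcl2 window starts at position −107 from the start. The forkhead core starts at −227 in the printed Bcl2l11 window, on the reverse strand, and at −167 in the printed Bbc3 window. These were the windows with that core, which was in 1 of 2 windows of Bcl2l11, in 1 of 3 of Bbc3 and in no window of the other members searched. The other Bbc3 windows held TGACG in 1 case and the hypoxia core in 1 case. Bnip3 held the hypoxia core as CACGTG near position −107, Bax held it with 4 matches, Mcl1 held TGACG at +17 and 1 window of Bcl2l1 held GATAA. Such matches are letters in a window, and no binding was measured.

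The other members of the family gave no call in either direction. Of 19 further genes listed, 11 passed the filter on low counts, with a median log2 fold change of 0.01. Bcl2l2, the gene for the survival protein BCL-W, had 2101 ± 191 and 1982 ± 120.7 normalised counts (log2 fold change −0.08, edgeR adjusted p = 0.531). Bok, a relative of Bax, had a log2 fold change of 0.23 (edgeR adjusted p = 0.418), Bcl2l13 −0.06 and Bcl2l12 −0.03. Bmf, a BH3-only gene, had 173 ± 33.9 against 223 ± 38.9 (log2 fold change 0.36, unadjusted p = 0.0472, edgeR adjusted p = 0.226), and Bnip1 and Becn1 had −0.16 and −0.10. Pmaip1, which encodes NOXA, had 0 to 20 counts per library and was not tested, nor were Bcl2l10, which had 0 in every library, and Bcl2a1a, Bcl2a1b and Bcl2a1d, with at most 14 counts.

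Downstream of the mitochondrial pore, 0 of 17 genes of the apoptosome, caspases and inhibitors were called, 5 had an unadjusted p under 0.05, and neither edgeR nor DESeq2 gave an adjusted p under 0.05. Of these genes 14 of 17 had a log2 fold change above 0, with a median of 0.12. Over all 13453 genes, 6439 had a log2 fold change below 0, with a median of 0.01, and 21.56% had an unadjusted p under 0.05. Casp6 had a log2 fold change of 0.44 (edgeR adjusted p = 0.178), and Dffa, the inhibitor of the caspase-activated nuclease, had −0.26 (edgeR adjusted p = 0.137). In the death receptor list, 0 of 13 tested genes were called by edgeR, 4 had an unadjusted p under 0.05 and 3 were called by DESeq2. Fadd, the receptor adaptor, had 585.4 to 772.1 against 460.9 to 570.2 normalised counts without overlap (log2 fold change −0.37, edgeR adjusted p = 0.0544). The kinase gene Ripk1 had 0.31 (edgeR adjusted p = 0.0760), also without overlap, at 261.8 to 303.6 against 320.4 to 409.6. The receptor gene Fas had 0.41 (edgeR adjusted p = 0.0841). Of all genes tested, 6.62% did not overlap.

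Around the mitophagy receptors, 1 of 18 mitophagy and autophagosome genes was called by edgeR, 5 had an unadjusted p under 0.05 and 3 were called by DESeq2. Sqstm1, which encodes the autophagy cargo adaptor p62, fell from 19315 ± 1342 to 16032 ± 608.8 normalised counts without overlap (log2 fold change −0.27, edgeR adjusted p = 0.0427). Gabarapl2 had −0.17, also without overlap (edgeR adjusted p = 0.0728, DESeq2 adjusted p = 0.0180). Pink1, the kinase gene of the parallel route, had 0.23 (edgeR adjusted p = 0.108, DESeq2 adjusted p = 0.0495). Of the outer membrane channel and permeability pore genes 0 of 8 were called by edgeR, 1 had an unadjusted p under 0.05 and 1 was called by DESeq2. The adenine nucleotide translocase gene Slc25a5 had 7045 ± 955.8 against 8990 ± 808.1 without overlap (log2 fold change 0.35, edgeR adjusted p = 0.0728), and Tspo and Mtch2 had −0.14 and −0.06.

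Among transcription factors that act on the family, 1 of 12 tested genes was called. Foxo1, a forkhead factor known to act on Bcl2l11 and Bbc3, rose from 1070 ± 40.2 to 1302 ± 98.3 normalised counts, with 1006 to 1106 against 1170 to 1408 (log2 fold change 0.28, edgeR adjusted p = 0.0389). E2f1 had 0.59 (edgeR adjusted p = 0.236) and Rela −0.15 (edgeR adjusted p = 0.305). Of 14 p53-induced genes 0 were called by edgeR or DESeq2, and 4 had an unadjusted p under 0.05. Eda2r had a log2 fold change of 0.41 without overlap (edgeR adjusted p = 0.111). Zmat3 had −0.31 (edgeR adjusted p = 0.163) and Btg2 −0.75 (edgeR adjusted p = 0.154), both with overlap. Of 16 hypoxia-induced genes, 2 were called by edgeR in opposite directions, 4 had an unadjusted p under 0.05 and 3 were called by DESeq2. P4ha2, a collagen prolyl hydroxylase gene, fell from 3259 ± 453.4 to 2354 ± 189.7 without overlap (log2 fold change −0.47, edgeR adjusted p = 0.0315). Ndrg1, a stress-responsive gene, rose from 897 ± 102 to 1186 ± 92.7 without overlap (log2 fold change 0.40, edgeR adjusted p = 0.0355). Egln1, the oxygen sensor PHD2, had 0.30 without overlap (edgeR adjusted p = 0.0609).

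Over the 10 lists, 4 of 109 tested genes were called, or 3.67%, with 2 lower and 2 higher, against 2.74% of all genes. DESeq2 called 11 of the 109, where it called 9.65% of all genes. Without MLPKO mouse 2 there were 4 calls, and without cRADΔ/Δ-MLPKO mouse 3 there were 0. In the 10 fits that each left out a mouse, P4ha2 was called in 4 and Sqstm1, Foxo1 and Ndrg1 in 2 each, and with the mouse number as a block P4ha2 alone was called. Sqstm1 was also not called with upper quartile factors (edgeR adjusted p = 0.0515) or without the filter on low counts (0.0627). The lower cardiomyocyte sum, the higher sums of endothelial, mural and macrophage markers and the higher mitochondrial share moved with each of these calls too, and their part was not tested.

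**Figure D5:**
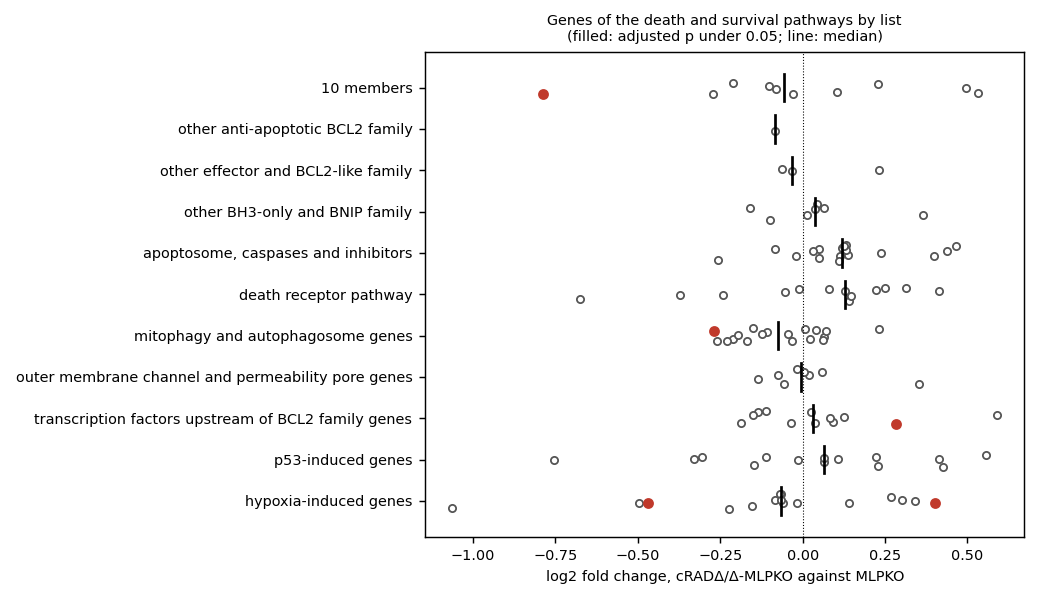
Log2 fold change of cRADΔ/Δ-MLPKO against MLPKO (horizontal axis) for each tested gene of the 10 members and of 10 lists (rows), with called genes filled and a line at the median of each row. The filled points are Bcl2, Sqstm1 and P4ha2 below 0 and Foxo1 and Ndrg1 above 0.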

How the data were processed

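Per the labels and the paper, the authors enriched polyadenylated RNA, used STAR (GRCm39) for alignment and featureCounts for gene counts, and deposited these raw counts with no normalization. Versions, strand and read pair settings are not given in the sources used here. Of 60676 genes, 3491 had no value and were left out. From 1 to 20 counts, 73.7% to 80.3% of values per library were even. The filter followed the wording of the paper's methods (over 10 counts in 6 or more of the 10 mice, without Gm and Rik genes). It gave 13453 genes, which is not the number of genes the authors used. Groups came from the sample labels. Counts were scaled by TMM, and genotype was tested in edgeR 4.0.16 (R 4.3.3, quasi-likelihood F-test) with Benjamini-Hochberg adjustment. DESeq2 1.42.0, limma-voom (limma 3.58.1), other scalings and filters, counts divided by 2 and a replicate block were alternatives. Scripts were tested on a single set of simulated counts, with 200 of 13453 genes changed. Of genes changed by 0.5 on the log2 scale, edgeR recovered 36.3% and DESeq2 63.7%. For changes of 1 these were 79.8% and 87.2%. False calls were 4.76% of the edgeR calls and 16.85% of the DESeq2 calls. TPM used the exon length of GENCODE M39. The members, lists, motifs and tests were chosen with earlier results of these data known. The genes named are the members and, of each list, all called genes or the 3 with the smallest p, plus Rrad and Csrp3. One listed gene is not reported here by name.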

Additional observations from a re-analysis of the deposited data

Results flagged for a closer look

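In a group of 5 mice, a mouse was marked where its gap to the nearest other mouse exceeded 0.71 of the range of the group (Dixon), which chance gives in about 1 of 20 groups. Of 76 groups checked (38 genes), 6 were marked, all as normalised counts. In Bbc3, cRADΔ/Δ-MLPKO mouse 3 had 268.7 against 171.2 to 197.9 in the other mice of its group. In Casp6, the same mouse had 464.1 against 299.3 to 345.2. In Becn1, cRADΔ/Δ-MLPKO mouse 5 had 1422 against 1300 to 1327. The same mouse had 14957 in Sqstm1 against 16157 to 16412, further from MLPKO than the rest. In Bcl2l12, MLPKO mouse 3 had 154.2 against 128.0 to 132.3. In Btg2, MLPKO mouse 2 had 3637 against 1116 to 1709.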

How the results depend on the processing

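The number of genes called was 369 (242 lower, 127 higher), and DESeq2 called 1298 genes, 3 members and 11 of the listed genes. With upper quartile factors the split was 205 lower and 175 higher. Leaving out each mouse gave 47 to 826 genes over all, 0 to 1 members and 0 to 9 listed genes. Bcl2 was not called without MLPKO mouse 1 (edgeR adjusted p = 0.0548) or 5 (0.0670), or without cRADΔ/Δ-MLPKO mouse 2 (0.0504), 3 (0.0583) or 4 (0.0582), and was called in every other fit run. The listed genes had 0 calls without MLPKO mouse 1 or 5 or cRADΔ/Δ-MLPKO mouse 3, 4 or 5, 1 without MLPKO mouse 3 or cRADΔ/Δ-MLPKO mouse 1 or 2, and 9 without MLPKO mouse 4. Mice share numbers but come from different animals. Same-numbered deviations correlated at −0.04 to 0.15, and not every mouse matched its own number best. With the replicate block, 281 genes, 1 member and 1 listed gene were called. With a mouse left out, log2 fold changes near 0 changed sign for Bax (−0.145 to 0.0025, above 0 without MLPKO mouse 2), Bid (−0.279 to 0.0394, above 0 without MLPKO mouse 3 or 4 or cRADΔ/Δ-MLPKO mouse 2) and Bcl2l12 (−0.0726 to 0.0256, above 0 without mouse 3 of either group). The causes were not tested. The untested family genes had too few counts for the filter.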
